A study of Mus musculus with 12 samples.

Results

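Mouse embryonic stem cells (ESC) held in naive medium were compared with epiblast-like cells (EpiLC) differentiated from ESC, in 6 of the 12 polyadenylated RNA libraries of the series. The groups were the 3 libraries titled wild-type ESC and the 3 titled wild-type EpiLC, all of strain C57 Bl/6J and all labelled wild type, and the labels give no engineered allele for either. Naive ESC were kept on gelatin, in N2B27 without serum, to which LIF and blockers of MEK (PD0325901, 1 uM) and GSK3 (CHIR99021, 3 uM) were added. EpiLC were moved from this medium onto fibronectin and exposed for 48 h to KOSR, a serum replacement (1%), Activin A at 20 ng/ml and Fgf2 at 12 ng/ml. The cell state and the medium, matrix and factors therefore differ together and cannot be told apart, the labels name no ESC line or passage for either group, and the labels do not say whether the inhibitors and LIF were left out during induction. All named loci with at least 1 FPKM (the authors' unit, fragments scaled to transcript length and library size) in at least 3 of these 6 libraries were described, which gave 11918 of 23136 named loci. The other 11218 were not tested.

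As background, the naive state models the epiblast before implantation and EpiLC the epiblast soon after it. At this step the epiblast becomes a polarised epithelium on a basement membrane, begins to divide faster and is known to lean more on glycolysis and less on mitochondrial respiration. Functions beyond the pluripotency factors are described here in this order: energy, building blocks, turnover, division, chromatin, surface and skeleton, and signals.

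Below, ESC stands for the wild-type naive ESC. Levels are FPKM, as single libraries in order of replicates 1 to 3 or as mean ± SD with n = 3 libraries a group. Changes are differences of mean log2(FPKM + 1), EpiLC minus wild-type ESC, ± SE. They understate the change of loci with low FPKM. A gene is said to have risen or fallen where limma gave a Benjamini-Hochberg adjusted p under 0.05. By this rule 4317 loci rose, which is 36.2% of those tested, and 4582 fell, which is 38.4%. These shares are the background for each count of list members below. At 77.7% of loci no EpiLC library lay within the range of ESC or the reverse, and this held for the genes that are named below as risen or fallen. Calls are common and often small: 45.4% of them were under 0.5 log2 units. Changes of at least 1 log2 unit were called upward at 800 loci (6.71%) and downward at 1046 (8.78%), and the median over all loci was -0.02. Depth, estimated from the steps between low FPKM values, lay between 0.986 and 1.02 of that of wild-type ESC replicate 1 in wild-type ESC and between 0.888 and 1.33 in EpiLC, where replicate 2 was the deepest. Nothing in the labels says that replicates were separate cultures, so the spread behind each p-value may be technical. In bulk RNA, fewer cells of a type and less RNA per cell cannot be told apart.

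The identity markers followed the labels. Each of the 11 naive markers fell, with 0 called higher (also 0 at an unadjusted p under 0.05), and 12 of 14 formative and primed markers rose. The exceptions were Nodal and Foxd3, which fell (log2 -0.27 ± 0.06 and -0.50 ± 0.09). Pou5f1, which both states express, was at 601, 628 and 602 FPKM in ESC and at 625, 595 and 592 FPKM in EpiLC, and these values overlapped (log2 -0.02 ± 0.03, limma adjusted p = 0.682; 0.19 with quantile normalization, where it passed).

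Loci on chromosomes 8 and 11 were displaced as whole chromosomes, and this bears on every gene there. Over 659 loci of chromosome 8 the median change was 0.42, with 75.4% of loci above 0. Over 1013 loci of chromosome 11 it was -0.47, with 78.2% below 0. Without a pseudocount, loci of at least 10 FPKM in both groups had a median EpiLC to ESC ratio of 1.32 on chromosome 8 (338 loci) and 0.692 on chromosome 11 (551 loci). The 3 EpiLC libraries had medians of 0.43, 0.42 and 0.41 above the wild-type ESC mean on chromosome 8 and of -0.48, -0.47 and -0.50 on chromosome 11. In the other 18 chromosomes (1 to 19 and X) the medians lay between -0.09 (chromosome 16) and 0.11 (chromosome 18). The shift ran along the whole length: every 10-Mb bin with at least 20 loci had the chromosome's sign, with medians of 0.32 to 0.57 on chromosome 8 and -0.66 to -0.21 on chromosome 11. Together they hold 14.0% of the loci tested. Of 8 matched Y-linked genes, 3 were tested and all 3 fell. The other 5 (Kdm5d, Sry, Usp9y, Zfy1 and Zfy2) were under 1 FPKM in both groups. Eif2s3y, a translation initiation factor subunit, was at 30.6, 27.9 and 28.3 FPKM in ESC and at 3.70, 4.45 and 5.41 FPKM in EpiLC. Ddx3y, an RNA helicase, was at 14.6, 14.6 and 13.8 FPKM in ESC and at 2.46, 3.06 and 2.91 FPKM in EpiLC. The labels do not say whether both groups came from one ESC line or from like passages, so a difference between the lines or cultures used cannot be told apart from the cell state, on these chromosomes or elsewhere. What shifts these chromosomes was not tested. For that reason genes on chromosome 8 or 11 are given below also with their chromosome's median removed ("adjusted log2"). Exceptions are Mt4 and the small RNA loci Snord91a and Snord68, which are listed at 0 in every library of a group. Printed list medians are given with their value over so adjusted genes. With the medians removed, 36.3% of all loci were called higher and 36.8% lower.

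**Figure D1:**
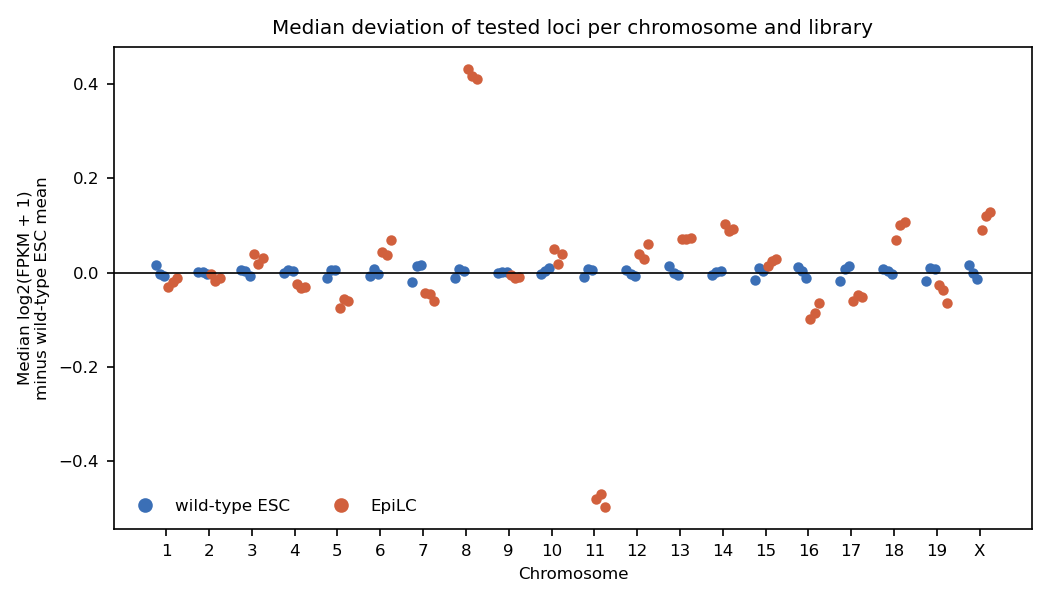
Median deviation of log2(FPKM + 1) from the wild-type ESC mean over the tested loci of each chromosome, one point per library (blue wild-type ESC, orange EpiLC). The 3 EpiLC libraries stand near 0.42 on chromosome 8 and -0.47 on chromosome 11, and within 0.13 of 0 on the others.

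Among single genes, the largest changes were chosen with the chromosome medians removed. Only genes that were called, had no overlap between the groups and had at least 10 FPKM in the higher group could be chosen. Those that rose include Etv4, Dusp4 and Spry4, known as outputs of FGF and ERK signalling. Etv4, an ETS transcription factor, was at 0.0927, 0.146 and 0.365 FPKM in ESC and at 44.4, 44.9 and 44.3 FPKM in EpiLC (log2 5.25 ± 0.09, adjusted log2 5.72). Dusp4, a phosphatase that switches off MAP kinases, was at 0.499, 0.630 and 0.569 FPKM in ESC and at 35.1, 34.9 and 31.9 FPKM in EpiLC (log2 4.48 ± 0.07, adjusted log2 4.06). Spry4, a feedback inhibitor of receptor tyrosine kinases, was at 0.0451, 0.0685 and 0 FPKM in ESC and at 18.0, 19.4 and 17.6 FPKM in EpiLC. The ESC libraries held almost no transcript of Etv4 or Spry4. Etv4 spans chromosome 11, 101631055 to 101646624, in mm9 as the authors' files give it. The other large rises were the de novo DNA methylation genes Dnmt3l, Dnmt3b and Dnmt3a, the transcription factors Pou3f1 and Otx2, the connexin Gja1 and the Wnt receptor Fzd7. Car4, a carbonic anhydrase held on the cell surface, rose from 0.0909 ± 0.0913 to 28.5 ± 1.59 FPKM (adjusted log2 5.23), and Enpp2, which encodes the lysophosphatidic acid producing enzyme autotaxin, from 0.0823 ± 0.0445 to 17.9 ± 1.47 FPKM. Vrtn, Sema6a and the small GTPase gene Arl4c completed the 15.

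The 15 largest falls held metabolic and epithelial genes beside transcription factors. Calcoco2, an autophagy receptor, was at 363, 355 and 362 FPKM in ESC and at 6.32, 5.22 and 4.70 FPKM in EpiLC (log2 -5.82 ± 0.08, adjusted log2 -5.35), and spans chromosome 11, 95957161 to 95973297 (mm9). Ckb, the brain type creatine kinase, was at 478, 504 and 499 FPKM in ESC and at 16.5, 15.6 and 15.6 FPKM in EpiLC (log2 -4.87 ± 0.04). Aqp3, a channel for water and glycerol, was at 118, 122 and 122 FPKM in ESC and at 1.53, 1.66 and 1.498 FPKM in EpiLC. Mt4, a metallothionein of stratified epithelia, was at 102, 74.5 and 78.1 FPKM in ESC and at 0, 0 and 0 FPKM in EpiLC, so it is listed at 0 in EpiLC and has no fold. Krtdap, a keratinocyte differentiation gene, was likewise listed at 0 in every EpiLC library, against 12.0 FPKM in wild-type ESC. Kiss1, which encodes kisspeptin, fell from 25.4 ± 1.55 to 0.335 ± 0.316 FPKM, Ptx3, a secreted pentraxin, from 19.9 ± 2.51 to 0.122 ± 0.0130 FPKM, and Fbp2, a gluconeogenic fructose bisphosphatase, from 19.11 ± 1.03 to 0.679 ± 0.342 FPKM. Jam2, a junction adhesion molecule, fell from 80.1 ± 2.74 to 3.50 ± 0.0957 FPKM. The transcription factors in this set were Neurog1, Spic, Prdm14, Hesx1 and Tbx3, of which Neurog1, a proneural factor, fell from 33.1 ± 1.99 to 0.186 ± 0.0535 FPKM.

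**Figure D2:**
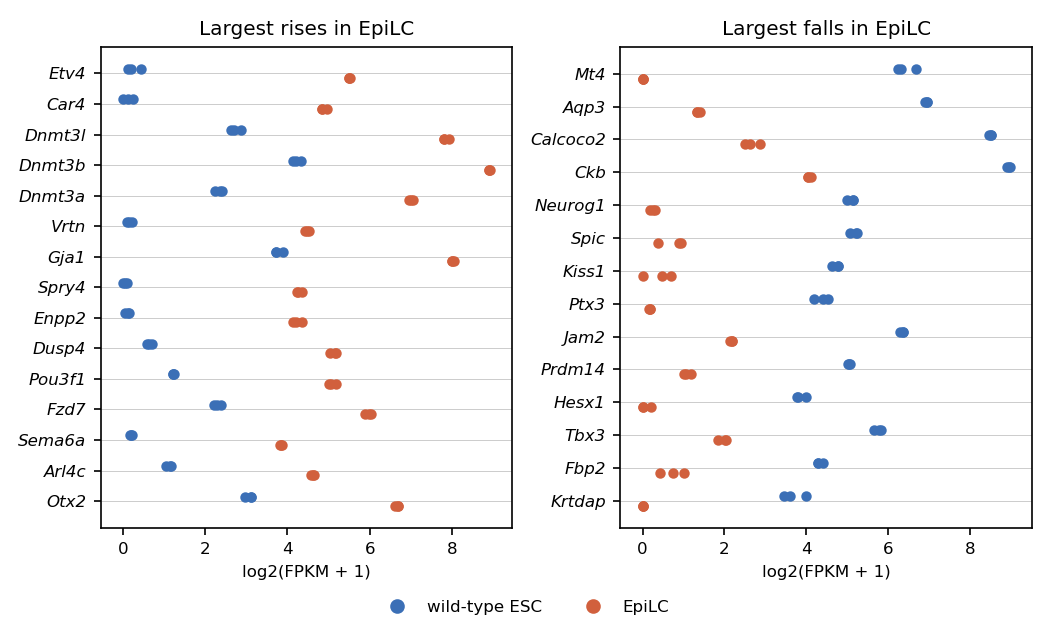
Values of single libraries on the log2(FPKM + 1) scale for the 15 genes with the largest rises (left) and 14 of the 15 with the largest falls (right) after removal of chromosome medians; blue points are wild-type ESC and orange points EpiLC, 3 libraries each. The genes were chosen by size of change and lack of overlap, so the wide gap between groups follows from that choice. Mt4 and Krtdap sit at 0 in EpiLC.

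Genes of mitochondrial respiration fell together by small amounts. The respiratory chain passes electrons through complexes to oxygen, and ATP synthase uses the resulting proton gradient. Of 35 complex I genes, 29 fell (82.9%, against 38.4% of all loci) and limma called 0 higher (0 also at an unadjusted p under 0.05), with a median change of -0.36 (adjusted -0.42). Of 26 complex III and IV genes, 21 fell (80.8%) and 1 rose (2 after adjustment; median -0.34, adjusted -0.33). Of 15 ATP synthase genes, 11 fell and limma called 0 higher (0 also at an unadjusted p under 0.05; median -0.30, adjusted -0.33). Ndufa6, a complex I subunit, was at 229, 226 and 217 FPKM in ESC and at 138, 136 and 134 FPKM in EpiLC (log2 -0.72 ± 0.03, limma adjusted p = 3.83e-08). Cox5a, a cytochrome c oxidase subunit, was at 489.5, 521 and 549 FPKM in ESC and at 248, 249 and 268 FPKM in EpiLC (log2 -1.02 ± 0.05). Cox7a1, the muscle type isoform of another oxidase subunit, had the largest fall among those named and was at 95.4, 108 and 104 FPKM in ESC and at 16.3, 18.1 and 17.7 FPKM in EpiLC (log2 -2.49 ± 0.06). Uqcr10 of complex III fell from 758 ± 20.9 to 276 ± 3.84 FPKM, but it lies on chromosome 11 and its log2 change of -1.45 ± 0.03 became -0.98 after adjustment. Atp5c1, the gamma subunit of ATP synthase, fell from 309.8 ± 4.43 to 204 ± 6.80 FPKM. None of the complex I genes reached a fall of 1 log2 unit, and 3 of complexes III and IV did.

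Genes that feed this chain moved mostly the same way. Of 25 genes of the tricarboxylic acid cycle, 17 fell and 5 rose (median -0.20, adjusted -0.23). Idh2, the mitochondrial NADP-linked isocitrate dehydrogenase, was at 125, 128 and 123 FPKM in ESC and at 53.5, 52.96 and 55.3 FPKM in EpiLC (log2 -1.20 ± 0.04). Sdhb, an iron-sulfur subunit shared by the cycle and complex II, fell from 143 ± 4.56 to 85.5 ± 1.75 FPKM. Proteins of the mitochondrial ribosome, which translates the subunits encoded in mitochondrial DNA, fell in 48 and rose in 9 of 73 cases. Their median of -0.32 became -0.23 after adjustment, since 10 lie on chromosome 11, and 45 then fell. Mrpl14, on chromosome 17, fell from 72.6 ± 2.89 to 37.9 ± 1.18 FPKM (log2 -0.92 ± 0.04).

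Fatty acid oxidation had fewer but larger falls. Of 21 genes, 14 fell, 6 of them by at least 1 log2 unit, and 4 rose (median -0.32, adjusted -0.30). Cpt1a attaches long chain fatty acids to carnitine for entry into mitochondria, and it was at 43.4, 40.5 and 40.7 FPKM in ESC and at 6.95, 6.80 and 7.90 FPKM in EpiLC (log2 -2.37 ± 0.06). Slc25a20, the carrier that brings the acylcarnitines across the inner membrane, was at 71.9, 73.7 and 72.9 FPKM in ESC and at 12.4, 10.97 and 10.4 FPKM in EpiLC (log2 -2.59 ± 0.06). Acaa2, the thiolase that cuts the chain inside, was at 46.6, 40.9 and 40.4 FPKM in ESC and at 6.37, 5.71 and 5.84 FPKM in EpiLC (log2 -2.64 ± 0.07). The EpiLC values of Cpt1a, Slc25a20 and Acaa2, which act at entry, transport and cleavage, lay far under every wild-type ESC value. These genes were chosen by the size of t, and 77.7% of all loci had groups without overlap. Etfb, which takes up the electrons, fell less, from 165 ± 1.89 to 73.9 ± 1.03 FPKM.

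Glycolysis did not move as one group. Of 24 genes, 12 rose and 8 fell, and the median of 0.15 became 0.29 after adjustment, with 14 higher and 7 lower. Pdk1, a kinase that inhibits pyruvate dehydrogenase and so limits the entry of pyruvate carbon into the tricarboxylic acid cycle, had the largest change of the list. It spans chromosome 2, 71711328 to 71741915 (mm9) and was at 6.19, 5.20 and 5.66 FPKM in ESC and at 71.7, 67.2 and 69.7 FPKM in EpiLC (log2 3.40 ± 0.06, limma adjusted p = 7.70e-11). The lactate dehydrogenase subunits moved in opposite directions. Ldha, the form tied to lactate production, was at 320.1, 311 and 330.1 FPKM in ESC and at 579, 556 and 550.3 FPKM in EpiLC (log2 0.81 ± 0.03), and Ldhb, the form of oxidative tissues, was at 325, 337 and 336 FPKM in ESC and at 198, 197 and 195 FPKM in EpiLC (log2 -0.76 ± 0.03). In wild-type ESC both forms stood at a like FPKM, while in EpiLC every Ldha value was above every Ldhb value. Slc2a3, the high affinity glucose transporter Glut3, fell from 490.0 ± 14.0 to 231 ± 1.79 FPKM (log2 -1.08 ± 0.03).

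Lipid synthesis was split between sterols and fatty acids. Of 22 cholesterol synthesis and uptake genes, 19 rose (86.4%, against 36.2% of all loci) and 1 fell (median 0.64, adjusted 0.63). Lss, which closes the sterol ring, was at 26.1, 23.1 and 23.8 FPKM in ESC and at 88.5, 87.9 and 88.4 FPKM in EpiLC (log2 1.82 ± 0.05). Mvd of the mevalonate pathway and Sc4mol, a sterol methyl oxidase, lie on chromosome 8, and their log2 changes of 1.67 ± 0.05 and 1.39 ± 0.03 became 1.26 and 0.98 after adjustment. The exception was Ebp, a sterol isomerase, which was at 52.0, 53.9 and 49.1 FPKM in ESC and at 16.1, 16.9 and 15.1 FPKM in EpiLC (log2 -1.63 ± 0.06). The sterol regulatory element, searched as TCACNCCAC on both strands of RefSeq promoter windows (GRCm38.p6, from 250 bases before to 50 after a start), was present in 0 of the 14 cholesterol genes with a window and in 1.44% of all genes. Fatty acid synthesis genes had 8 higher and 9 lower of 20, and their median of -0.05 turned to 0.07 after adjustment, so no direction is given for this list. Acsl4, which activates polyunsaturated fatty acids, rose from 9.30 ± 0.824 to 48.6 ± 3.62 FPKM, as did the desaturase genes Fads1 and Fads2, from 28.0 ± 1.51 to 53.7 ± 1.60 FPKM and 42.4 ± 1.09 to 79.9 ± 1.42 FPKM. Elovl7, an elongase, fell from 7.35 ± 0.338 to 1.78 ± 0.0751 FPKM.

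**Figure D3:**
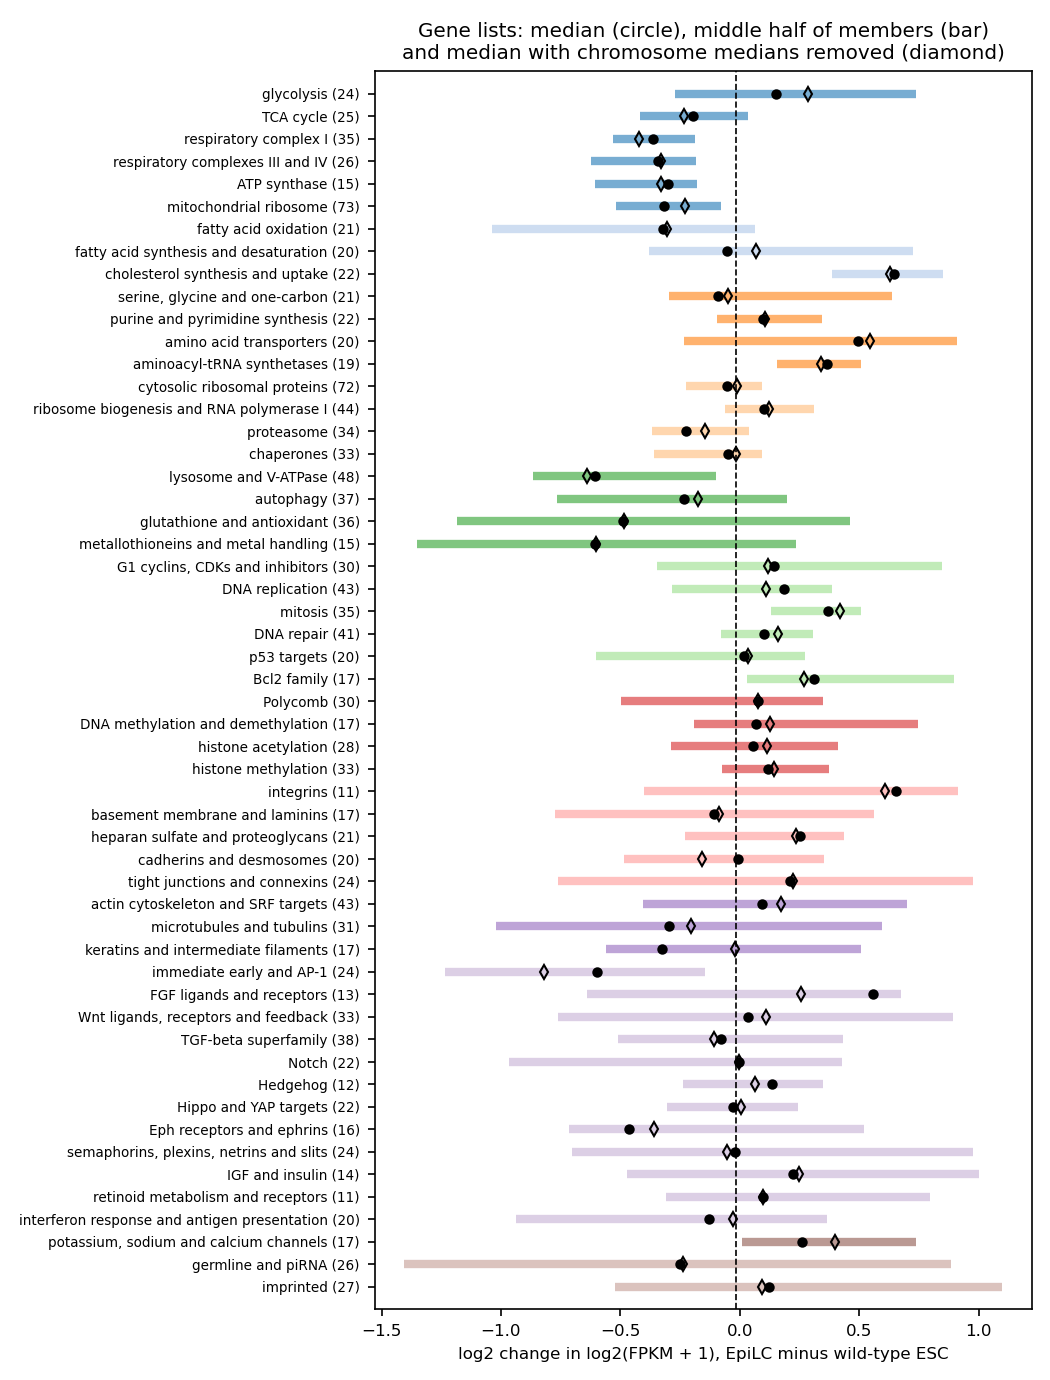
Change between groups for 54 gene lists with the number of tested members in brackets; the circle is the median, the bar the interquartile range of the members, the diamond the median after removal of chromosome medians, and the dashed line the median of all loci (-0.02). Cholesterol synthesis, mitosis and tRNA synthetases lie to the right of that line, and respiration, lysosome and immediate early genes to the left.

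Genes for the uptake of amino acids and for loading them onto tRNA were mostly higher. Of 20 amino acid transporter genes, 13 rose and 6 fell (median 0.50, adjusted 0.54). Slc1a3, a glutamate and aspartate transporter, was at 0.469, 0.275 and 0.389 FPKM in ESC and at 12.7, 13.3 and 12.0 FPKM in EpiLC (log2 3.31 ± 0.09). Slc7a7, a light chain for cationic and neutral amino acids, was at 16.6, 17.7 and 17.5 FPKM in ESC and at 59.6, 59.9 and 57.2 FPKM in EpiLC, and the shared heavy chain Slc3a2 was at 82.2, 84.6 and 86.6 FPKM in ESC and at 154, 152 and 155 FPKM in EpiLC. Slc7a5, the light chain for large neutral amino acids, lies on chromosome 8, where its log2 change of 1.26 ± 0.06 became 0.84. Of 19 cytosolic aminoacyl-tRNA synthetase genes, 16 rose (84.2%, against 36.2% of all loci) and 3 fell (median 0.37, adjusted 0.34). Gars, for glycine, was at 73.1, 80.9 and 78.9 FPKM in ESC and at 135, 135 and 144 FPKM in EpiLC (log2 0.82 ± 0.05), and Nars, for asparagine, and Iars, for isoleucine, rose by a log2 change of 0.62 ± 0.03 and 0.54 ± 0.04. None of these synthetase genes reached 1 log2 unit.

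Genes of one-carbon metabolism moved in both directions. Of 21 serine, glycine and one-carbon genes, 10 rose and 8 fell. Tdh, the threonine dehydrogenase by which naive mouse ESC are known to make glycine, was at 388, 384 and 380.5 FPKM in ESC and at 142, 144 and 141 FPKM in EpiLC (log2 -1.43 ± 0.03). Amt of the glycine cleavage system fell from 71.1 ± 2.56 to 33.1 ± 0.567 FPKM. Mthfd2 and Mthfd1l, which handle folate-bound one-carbon units in mitochondria, rose from 70.5 ± 1.41 to 145 ± 3.59 FPKM and from 23.1 ± 1.09 to 48.7 ± 1.95 FPKM. Of 22 purine and pyrimidine synthesis genes, 12 rose and 5 fell (11 and 3 after adjustment). Prps2, which makes the ribose phosphate donor of nucleotides, was at 12.1, 10.8 and 10.8 FPKM in ESC and at 37.2, 36.2 and 36.5 FPKM in EpiLC (log2 1.62 ± 0.05), and the thymidylate kinase gene Dtymk fell from 319.6 ± 4.06 to 194 ± 7.22 FPKM.

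The ribosomal protein and chaperone lists had medians near 0. Of 72 cytosolic ribosomal protein genes, 36 did not pass the test, 12 rose and 24 fell, with a median of -0.05 (adjusted -0.01). These genes have many processed pseudogenes, between which the counting could split reads. Rpl14, on chromosome 9, fell from 289 ± 6.46 to 225 ± 5.77 FPKM. Rpl26, on chromosome 11, fell (log2 -0.55 ± 0.04) but did not pass after adjustment (-0.07). Genes of ribosome biogenesis rose in 21 and fell in 8 of 44 cases, among them Rrn3, an initiation factor of RNA polymerase I, at 69.8, 69.4 and 72.9 FPKM in ESC and at 127, 123 and 128 FPKM in EpiLC (log2 0.83 ± 0.04). Of 33 chaperone genes, 10 rose and 13 fell (median -0.05, adjusted -0.02). The small heat shock genes Hspb8 and Hspb1 fell from 70.4 ± 2.14 to 15.6 ± 0.536 FPKM and from 58.5 ± 4.05 to 23.8 ± 0.302 FPKM. Proteasome genes fell in 21 and rose in 7 of 34 cases, but 7 of them lie on chromosome 11, and the median of -0.23 became -0.14 after adjustment.

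Lysosomal genes fell as a group. The lysosome digests proteins, lipids and sugars in an acid lumen that the V-ATPase proton pump maintains. Of 48 genes, 35 fell (72.9%, against 38.4% of all loci), 9 of them by at least 1 log2 unit, and 7 rose, with a median of -0.60 (adjusted -0.64). Hexa, a subunit of beta-hexosaminidase that spans chromosome 9, 59387473 to 59412912 (mm9), was at 68.5, 74.4 and 73.6 FPKM in ESC and at 24.4, 22.5 and 24.8 FPKM in EpiLC (log2 -1.56 ± 0.05). Ctsd, the aspartyl protease cathepsin D, was at 220.3, 218 and 217 FPKM in ESC and at 117, 113 and 118 FPKM in EpiLC (log2 -0.91 ± 0.03). Laptm4b, a lysosomal membrane protein, went against the list and was at 13.8, 12.4 and 13.1 FPKM in ESC and at 39.1, 37.4 and 39.6 FPKM in EpiLC (log2 1.50 ± 0.05). Tfeb and Mitf, MiT family transcription factors known to drive lysosomal genes, were looked at after the list had been seen. Tfeb fell from 9.93 ± 0.279 to 2.70 ± 0.279 FPKM and Mitf from 9.28 ± 1.12 to 0.893 ± 0.0861 FPKM, while Tfe3 of the same family did not pass, with 50.9 ± 2.66 to 51.3 ± 0.183 FPKM (log2 0.01 ± 0.05, limma adjusted p = 0.831).

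MiT factors bind the CLEAR element, here searched as TCACGTGA, a palindrome that contains the E-box CACGTG. Its windows were the RefSeq promoters of build GRCm38.p6, from 250 bases before to 50 after a start, on both strands. A match was present in 7 of the 37 lysosomal genes with a window (18.9%) and in 1.12% of all genes with one. The element was chosen beforehand for this list, as that of factors known to drive lysosomal genes. Its share is therefore no result of these data. Of these 7, Ctsa, Ctsd, Gla, Atp6v1a, Atp6v0e and Atp6v0d1 fell and Mcoln1 rose. Atp6v0d1 and Mcoln1 lie on chromosome 8, and their log2 changes of -0.11 ± 0.04 and 0.23 ± 0.06 became -0.52 and -0.18. Stretches of 60 bases from the part before the start are printed for 4 of the genes that fell, to show where the element stands, with the element in capitals. They are Ctsd (chr7:142387893-142387952, minus strand), Ctsa, a serine carboxypeptidase (chr2:164833713-164833772, plus strand), Atp6v1a, the catalytic pump subunit (chr16:44139358-44139417, minus strand), and Gla, alpha-galactosidase A (chrX:134601184-134601243, minus strand).
Ctsd: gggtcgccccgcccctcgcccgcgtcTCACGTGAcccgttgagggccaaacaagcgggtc
Ctsa: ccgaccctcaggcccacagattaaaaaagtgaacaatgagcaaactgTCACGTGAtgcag
Atp6v1a: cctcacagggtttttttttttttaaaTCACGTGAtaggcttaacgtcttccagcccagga
Gla: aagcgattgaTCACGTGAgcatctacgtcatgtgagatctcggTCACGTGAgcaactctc
The element begins 99 bases before the start in Ctsd, 13 in Ctsa and 132 in Atp6v1a, and Gla holds it 2 times. Ctsa fell from 40.0 ± 1.72 to 17.3 ± 0.222 FPKM (log2 -1.16 ± 0.05), Atp6v1a from 62.4 ± 2.56 to 45.7 ± 1.36 FPKM (log2 -0.44 ± 0.04) and Gla from 8.79 ± 0.731 to 5.51 ± 0.141 FPKM (log2 -0.59 ± 0.07). A match is a description of letters and shows no binding. In the whole list 35 of 48 genes fell, and a link between a match and a fall was not tested.

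Autophagy genes were lower more often than higher. Of 37 autophagy genes, 21 fell and 10 rose (56.8% and 27%, against 38.4% and 36.2% of all loci). Their median was -0.23 (adjusted -0.18). Beside Calcoco2, the cargo receptor gene Sqstm1 was at 199.6, 206 and 209 FPKM in ESC and at 83.6, 84.2 and 84.4 FPKM in EpiLC (log2 -1.27 ± 0.03, adjusted log2 -0.80). Ulk1, the kinase that starts autophagosome formation, was at 58.3, 65.3 and 64.5 FPKM in ESC and at 16.5, 16.8 and 15.7 FPKM in EpiLC (log2 -1.88 ± 0.05), and its partner Atg13 was at 42.9, 43.1 and 43.2 FPKM in ESC and at 14.5, 14.99 and 14.7 FPKM in EpiLC (log2 -1.49 ± 0.04). The 3 EpiLC values of Ulk1 and of Atg13 were well under the wild-type ESC values, though the groups lacked overlap at 77.7% of all loci.

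Genes that handle oxidants and metals were mostly lower. Of 36 glutathione and antioxidant genes, 21 fell and 12 rose (58.3% and 33.3%, against 38.4% and 36.2% of all loci). Their median was -0.49 (adjusted -0.49). Sod2, the mitochondrial superoxide dismutase, was at 89.8, 86.5 and 90.3 FPKM in ESC and at 24.0, 22.9 and 23.3 FPKM in EpiLC (log2 -1.88 ± 0.04). Gpx1, a glutathione peroxidase, was at 1032, 1032 and 1024 FPKM in ESC and at 337, 292 and 302 FPKM in EpiLC (log2 -1.73 ± 0.05). Nqo1, a quinone reductase, fell from 117 ± 3.38 to 23.02 ± 1.86 FPKM although chromosome 8 as a whole was higher (log2 -2.30 ± 0.06, adjusted log2 -2.72). Srxn1, which repairs oxidised peroxiredoxins, fell from 36.2 ± 1.07 to 10.4 ± 0.162 FPKM. Of 15 metal handling genes, 9 fell and 5 rose (60% and 33.3%, against the same shares of all loci). Their median was -0.60 (adjusted -0.60). Mt1 and Mt2, which bind zinc and copper, were at 1456, 1505 and 1552 FPKM in ESC and at 339, 353 and 323 FPKM in EpiLC for Mt1 and at 2358, 2354 and 2409.9 FPKM in ESC and at 447, 492 and 457 FPKM in EpiLC for Mt2. Both lie on chromosome 8 and gave adjusted log2 changes of -2.57 and -2.77. Their transcripts are alike, so the counting could have split reads between them. Slc39a14, a zinc and iron importer, rose against this from 2.86 ± 0.385 to 43.9 ± 1.30 FPKM (log2 3.54 ± 0.08).

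The metal response element was searched as TGCGCNC on both strands of the same windows, and other spellings of it were not searched. This form was present in 5 of 11 metal handling genes (45.5%) and in 17.0% of all genes. The element was chosen beforehand for this list, which holds metallothioneins, so its share is no result of these data. The 5 genes were Mt1, Mt2, the zinc exporters Slc30a1 and Slc30a4 and the transferrin receptor gene Tfrc, and each of them fell. In the whole list 9 of 15 genes fell, and a link between the element and the fall was not tested. Slc30a1 fell from 14.5 ± 0.583 to 4.86 ± 0.323 FPKM and Tfrc from 171 ± 7.38 to 79.9 ± 2.63 FPKM. The stretch of Mt2 (chr8:94172463-94172522, plus strand), shown as the most abundant of them, holds the element in capitals.
Mt2: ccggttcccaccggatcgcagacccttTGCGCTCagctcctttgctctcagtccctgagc
In Mt2 the element printed begins 128 bases before the start.

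Genes of mitosis rose together, by small amounts. Of 35 genes, 27 rose (77.1%, against 36.2% of all loci) and 5 fell (median 0.37, adjusted 0.42). Cdc20, the activator of the anaphase-promoting complex, was at 64.6, 69.8 and 69.3 FPKM in ESC and at 141, 136 and 135 FPKM in EpiLC (log2 1.01 ± 0.04). Ccnb2, a mitotic cyclin, was at 80.2, 78.6 and 78.3 FPKM in ESC and at 114, 116 and 118 FPKM in EpiLC (log2 0.55 ± 0.03). Pttg1, the separase inhibitor securin, and Birc5, the survivin subunit of the chromosomal passenger complex, fell (log2 -0.98 ± 0.04 and -0.89 ± 0.05), and these changes became -0.50 and -0.42 with the median of chromosome 11 removed. DNA replication genes had 23 higher and 15 lower of 43, and 6 of them lie on chromosome 8. Gins2 and Mcm5 of the replicative helicase are among these, and their log2 changes of 1.14 ± 0.04 and 0.76 ± 0.04 became 0.72 and 0.34. Mcm2, on chromosome 6, rose from 154 ± 1.95 to 202 ± 2.67 FPKM.

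The G1 regulators shifted between members. Of 30 genes, 14 rose and 11 fell. Ccnd3 was at 128, 134 and 141 FPKM in ESC and at 46.2, 41.5 and 41.2 FPKM in EpiLC (log2 -1.62 ± 0.05), while Ccnd1, another D cyclin, was at 23.6, 23.2 and 23.8 FPKM in ESC and at 44.3, 44.5 and 43.1 FPKM in EpiLC (log2 0.87 ± 0.04). The CDK inhibitor genes also diverged: Cdkn1a, which encodes p21, was at 152, 143 and 144 FPKM in ESC and at 60.2, 59.1 and 58.4 FPKM in EpiLC (log2 -1.29 ± 0.04), and Cdkn1c, which encodes p57, was at 4.88, 4.95 and 4.35 FPKM in ESC and at 16.3, 16.2 and 16.5 FPKM in EpiLC (log2 1.60 ± 0.06). The p53 targets had 9 higher and 9 lower of 20 (45% each, against 36.2% and 38.4% of all loci). The Bcl2 family, which sets the threshold for cell death, had 9 higher and 4 lower of 17. Pmaip1, the pro-death BH3 protein Noxa, was at 13.6, 14.1 and 14.0 FPKM in ESC and at 108, 109 and 112 FPKM in EpiLC (log2 2.89 ± 0.04), and Bcl2l11, the BH3 protein Bim, was at 1.99, 2.14 and 2.09 FPKM in ESC and at 8.54, 9.96 and 9.33 FPKM in EpiLC (log2 1.74 ± 0.08). Trp53 itself fell from 267 ± 8.80 to 152 ± 4.77 FPKM, and its log2 change of -0.81 ± 0.04 became -0.33 after adjustment for chromosome 11. Among 41 DNA repair genes 20 rose and 9 fell. Brca1, on chromosome 11, fell (log2 -1.02 ± 0.05, adjusted -0.54), and Parp1 rose from 149.6 ± 8.09 to 208 ± 1.87 FPKM.

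Chromatin regulators changed as single genes more than as lists. The medians of the Polycomb, DNA methylation, histone acetylation and histone methylation lists lay between 0.05 and 0.12 (adjusted 0.08 to 0.14). The last 3 had 8, 11 and 16 genes higher and 6, 9 and 7 lower of 17, 28 and 33. Of 30 Polycomb genes, 13 rose and 10 fell (43.3% and 33.3%, near the shares of all loci). Phc1, a subunit of the canonical repressive complex 1, was at 101, 105 and 99.8 FPKM in ESC and at 367, 354 and 362 FPKM in EpiLC (log2 1.82 ± 0.03). Suz12, a core subunit of repressive complex 2, was at 189, 192 and 186 FPKM in ESC and at 76.9, 83.0 and 81.4 FPKM in EpiLC, and its log2 change of -1.22 ± 0.04 became -0.75 after adjustment for chromosome 11. Ehmt1, a histone H3 lysine 9 methyltransferase, rose from 14.6 ± 0.501 to 31.3 ± 0.545 FPKM, while Smyd2, a lysine methyltransferase, fell from 33.8 ± 2.25 to 13.3 ± 0.889 FPKM and Kdm3a, a lysine 9 demethylase, from 31.4 ± 0.802 to 15.2 ± 0.261 FPKM. Myst4, a histone acetyltransferase also called Kat6b, fell from 49.6 ± 2.02 to 19.3 ± 0.369 FPKM, and Hdac1 from 60.8 ± 1.33 to 36.8 ± 0.670 FPKM. Zfp57, a zinc finger protein that protects imprinted methylation, was at 236, 257 and 255 FPKM in ESC and at 117, 122 and 122 FPKM in EpiLC (log2 -1.04 ± 0.04), opposite in direction to the de novo methyltransferase genes. On chromosome 8 the chromatin remodeller gene Chd9 rose from 3.26 ± 0.144 to 44.6 ± 0.859 FPKM (log2 3.42 ± 0.05, adjusted log2 3.01).

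Imprinted and germline genes moved in both directions. Of 27 imprinted genes, 13 rose, 8 of them by at least 1 log2 unit, and 9 fell. Nnat, a neuronal membrane protein gene, was at 3.09, 3.25 and 2.84 FPKM in ESC and at 20.7, 24.5 and 20.9 FPKM in EpiLC (log2 2.50 ± 0.08), and Peg10, a gene derived from a retrotransposon, was at 4.21, 4.48 and 4.22 FPKM in ESC and at 17.3, 18.2 and 17.4 FPKM in EpiLC (log2 1.81 ± 0.06). Grb10, an adaptor that dampens insulin and IGF signalling, rose from 19.4 ± 1.53 to 66.9 ± 0.344 FPKM although it lies on chromosome 11 (log2 1.74 ± 0.06, adjusted log2 2.21). The Gnas locus, which holds several overlapping transcripts, rose from 83.5 ± 2.70 to 189 ± 6.15 FPKM. Of 26 germline and piRNA genes, 15 fell, 10 of them by at least 1 log2 unit, and 11 rose, 4 of them by at least 1 log2 unit. Their summed FPKM was higher in EpiLC, at 370, 354 and 339 in ESC and at 549, 511 and 530 in EpiLC. The X-linked homeobox genes Rhox6 and Rhox9, which are near copies of each other, fell from 20.6 ± 1.58 to 0.885 ± 0.257 FPKM and from 19.7 ± 1.32 to 1.13 ± 0.336 FPKM. Tex19.1, a germline gene that is also expressed in pluripotent cells, fell from 62.8 ± 2.27 to 22.6 ± 1.27 FPKM (adjusted log2 -0.97).

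Connexins, which form the channels between neighbouring cells, moved in opposite directions. Gjb5, a beta connexin, was at 29.8, 30.1 and 29.5 FPKM in ESC and at 1.71, 1.73 and 1.78 FPKM in EpiLC (log2 -3.49 ± 0.06). Gja1, connexin 43 (chromosome 10, 56097105 to 56110225, mm9), was at 12.2, 12.2 and 13.9 FPKM in ESC and at 253, 256 and 262 FPKM in EpiLC (log2 4.23 ± 0.05). Gjb5 was thus higher in each wild-type ESC library than in any EpiLC library, and Gja1 the reverse. Such a lack of overlap was found at 77.7% of all loci. Of all 24 tight junction and connexin genes, 11 rose and 9 fell. Cldn7, a claudin of tight junctions on chromosome 11, rose from 3.28 ± 0.632 to 14.96 ± 1.43 FPKM (adjusted log2 2.38).

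Integrins, the receptors for matrix proteins, had 6 higher and 4 lower of 11 (adjusted 7 and 4). The matrix also differed between the groups and cannot be told apart from the cell state. Itga5, the alpha subunit of the main fibronectin receptor, was at 4.04, 4.21 and 4.23 FPKM in ESC and at 8.72, 8.77 and 9.25 FPKM in EpiLC (log2 0.94 ± 0.07). Its partner Itgb1 was at 49.4, 46.5 and 47.9 FPKM in ESC and at 99.1, 94.3 and 102 FPKM in EpiLC and lies on chromosome 8 (log2 1.02 ± 0.04, adjusted log2 0.61). Itga6 and Itga3, alpha subunits of laminin receptors, rose from 21.3 ± 0.512 to 50.6 ± 0.441 FPKM and from 7.16 ± 0.749 to 14.0 ± 0.765 FPKM, the latter on chromosome 11 (adjusted log2 1.36). Itgb5 rose from 15.6 ± 0.951 to 25.1 ± 1.73 FPKM and Itga9 from 0.282 ± 0.0974 to 1.31 ± 0.181 FPKM. Itgb3 fell from 2.83 ± 0.0918 to 0.529 ± 0.0434 FPKM (adjusted log2 -0.85), Itga7 from 1.56 ± 0.149 to 0.465 ± 0.179 FPKM, Itgb7 from 7.56 ± 0.799 to 4.67 ± 0.0693 FPKM and Itgav from 9.44 ± 0.0972 to 8.02 ± 0.659 FPKM. The fall of Itgav no longer passed without EpiLC replicate 1 (limma adjusted p = 0.0628) or EpiLC replicate 3 (0.0519). Itgb4 did not pass (log2 -0.08 ± 0.10), except with the median of chromosome 11 removed (0.39).

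**Figure D4:**
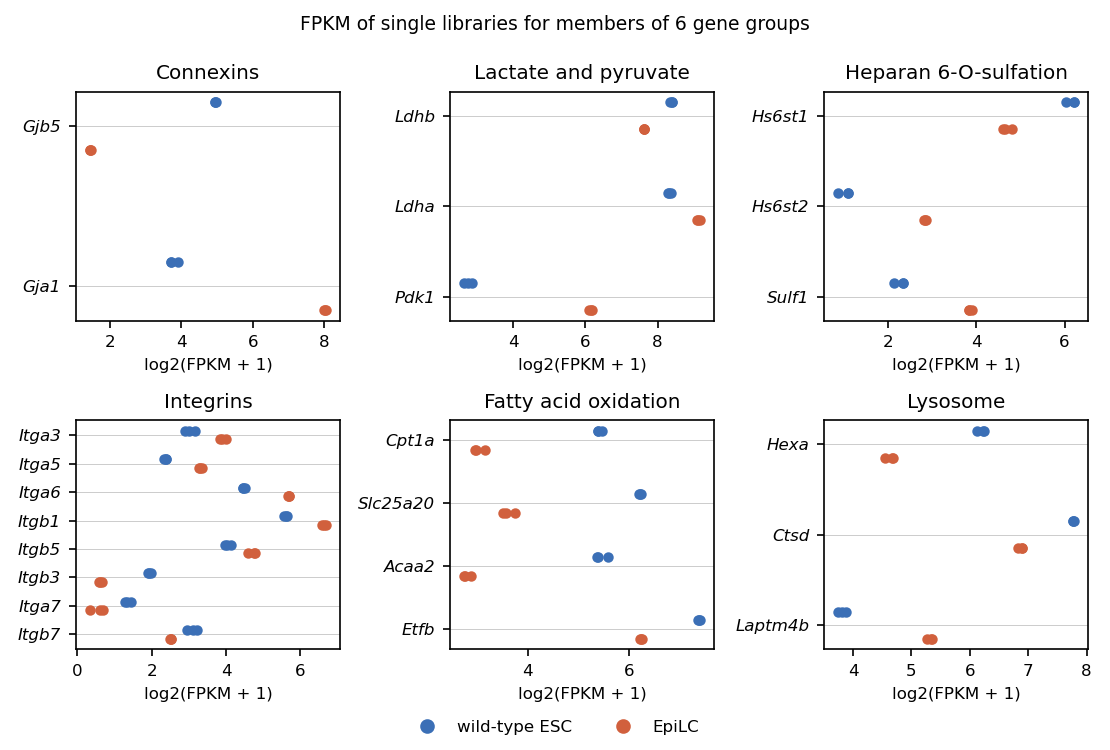
Values of single libraries on the log2(FPKM + 1) scale for members of 6 gene groups, with blue points for wild-type ESC and orange points for EpiLC (3 each). Gjb5 fell while Gja1 rose, Ldhb fell while Ldha and Pdk1 rose, Hs6st1 fell while Hs6st2 rose, and the fatty acid oxidation genes shown fell.

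Matrix genes were mixed. Of 17 basement membrane and laminin genes, 8 fell and 5 rose. Sparc, a matrix glycoprotein, was at 505, 519.6 and 526 FPKM in ESC and at 94.4, 94.8 and 96.7 FPKM in EpiLC and lies on chromosome 11 (log2 -2.43 ± 0.03, adjusted log2 -1.95). Nid1, the basement membrane linker nidogen, fell from 47.5 ± 0.0932 to 13.7 ± 0.938 FPKM. Col18a1 and Lamb1, which encode a collagen and a laminin chain of basement membranes, rose from 19.5 ± 1.45 to 71.7 ± 1.38 FPKM and from 15.1 ± 0.203 to 34.7 ± 0.764 FPKM. Heparan sulfate, the sugar chain that Fgf2 needs to engage its receptors, had 12 of 21 genes higher and 6 lower. Its sulfotransferase genes diverged: Hs6st1 was at 64.1, 73.0 and 73.6 FPKM in ESC and at 24.2, 27.2 and 23.4 FPKM in EpiLC (log2 -1.46 ± 0.07) and Hs6st2 at 0.839, 1.13 and 1.13 FPKM in ESC and at 6.29, 6.04 and 6.20 FPKM in EpiLC (log2 1.82 ± 0.09). Sulf1, which removes such sulfates at the cell surface, rose from 3.87 ± 0.405 to 13.4 ± 0.404 FPKM, and the core protein gene Gpc4 from 3.91 ± 0.476 to 13.4 ± 0.285 FPKM. Fibroblast and feeder markers summed to 163 to 190 FPKM a library in ESC and to 106 to 114 in EpiLC, with 9 of 17 lower and 5 higher. Col1a1 fell from 38.2 ± 5.80 to 7.60 ± 0.639 FPKM (adjusted log2 -1.71) and Thy1 rose from 6.64 ± 0.556 to 15.5 ± 0.7004 FPKM, while the fibroblast markers Pdgfra, Pdgfrb and Twist2 were under 1 FPKM in both groups. The part of such cells in these matrix values was not tested.

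Desmosomal and cytoskeletal genes also moved in both directions. Of 20 cadherin and desmosome genes, 7 rose and 8 fell (35% and 40%, near the shares of all loci). Dsg2, a desmosomal cadherin, was at 21.5, 19.3 and 20.1 FPKM in ESC and at 4.74, 4.79 and 4.88 FPKM in EpiLC (log2 -1.87 ± 0.06), and Jup, which links such cadherins to the cell interior, fell from 32.8 ± 2.58 to 8.9997 ± 0.210 FPKM (adjusted log2 -1.28), while its relative Pkp2 rose from 12.9 ± 1.09 to 27.3 ± 0.745 FPKM. Pcdh1, a protocadherin, was at 0.0267, 0.135 and 0.105 FPKM in ESC and at 7.25, 7.51 and 7.79 FPKM in EpiLC (log2 2.97 ± 0.08). Of 43 actin cytoskeleton genes and targets of the serum response factor (SRF), 20 rose and 18 fell. Ezr, which ties actin to the membrane of microvilli, was at 205, 205 and 199.5 FPKM in ESC and at 76.6, 75.6 and 77.7 FPKM in EpiLC (log2 -1.40 ± 0.03), and Actn4, an actin crosslinker, was at 58.8, 62.3 and 64.9 FPKM in ESC and at 129, 125 and 125 FPKM in EpiLC (log2 1.02 ± 0.04). Microtubule genes had 17 lower and 12 higher of 31. Tubb3, the neuronal beta tubulin, fell on the raised chromosome 8 from 207 ± 6.42 to 52.4 ± 2.64 FPKM (log2 -1.96 ± 0.04, adjusted log2 -2.37), and Mapt, which encodes tau, from 6.76 ± 0.314 to 0.345 ± 0.119 FPKM (adjusted log2 -2.06). Tubulins are near copies of one another, so reads could be split. Keratin and intermediate filament genes had 6 higher and 8 lower of 17, and their median of -0.33 became -0.02 after adjustment. Prph, a neuronal intermediate filament gene, and Krt18 rose from 1.13 ± 0.219 to 14.8 ± 0.417 FPKM and from 2.59 ± 0.490 to 11.6 ± 1.40 FPKM, and Krt42 fell from 31.3 ± 2.26 to 1.39 ± 0.157 FPKM (adjusted log2 -3.28).

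Immediate early genes, which growth signals switch on within minutes, were mostly lower in EpiLC. Of 24 genes, 18 fell and 5 rose (75% and 20.8%, against 38.4% and 36.2% of all loci). Their median was -0.60 (adjusted -0.82, since 3 lie on chromosome 8). Fos was at 35.3, 39.0 and 36.5 FPKM in ESC and at 5.49, 6.39 and 7.71 FPKM in EpiLC (log2 -2.34 ± 0.10), and Jun was at 12.9, 15.1 and 14.4 FPKM in ESC and at 3.20, 2.76 and 2.31 FPKM in EpiLC (log2 -2.01 ± 0.10). Fosb fell from 5.82 ± 0.380 to 1.07 ± 0.105 FPKM and Ier5l from 27.2 ± 2.37 to 10.9 ± 0.671 FPKM. The groups did not overlap in these 4 genes, as at 77.7% of all loci, and the genes were chosen by the size of t.

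The CArG box, to which the serum response factor binds, was searched in the same promoter windows. It was present in 3 of 20 immediate early genes with a window (15%) and in 1.81% of all genes. In the list of actin cytoskeleton genes and SRF targets it was present in 8 of 40 (20%). That list was written to hold targets of this factor. The box was chosen beforehand for both lists, so neither share is a result of these data. The 3 immediate early genes with a match did not move together: Egr2 fell from 2.15 ± 0.0695 to 0.239 ± 0.0805 FPKM, Dusp5 rose from 4.55 ± 0.221 to 5.44 ± 0.309 FPKM, and Zfp36, with 9.93 ± 0.284 to 11.3 ± 1.75 FPKM, did not pass. Their stretches are shown because genes with this box differed in direction, with the box in capitals.
Egr2: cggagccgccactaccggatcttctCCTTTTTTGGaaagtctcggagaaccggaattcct
Dusp5: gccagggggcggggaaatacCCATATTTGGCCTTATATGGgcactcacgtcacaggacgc
Zfp36: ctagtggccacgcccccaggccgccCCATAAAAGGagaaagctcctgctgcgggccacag
They lie at chr10:67537469-67537528, plus strand for Egr2, at chr19:53529043-53529102, plus strand for Dusp5 and at chr7:28379252-28379311, minus strand for Zfp36 (GRCm38.p6). Dusp5 holds the box 2 times.

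Ligands and receptors of the main pathways moved in both directions within each list, with 7 higher and 5 lower of 14 IGF and insulin genes, for example. Of 13 FGF genes, 7 rose and 4 fell. The ligand gene Fgf15 was at 0.308, 0.2499 and 0.364 FPKM in ESC and at 12.1, 11.5 and 10.8 FPKM in EpiLC (log2 3.25 ± 0.08), and Fgf4, the main FGF of naive cells, fell from 181 ± 3.19 to 116 ± 0.833 FPKM, as did the receptor gene Fgfr2, from 7.65 ± 0.678 to 2.16 ± 0.228 FPKM. Of 33 Wnt genes, 14 rose and 14 fell (42.4% each, against 36.2% and 38.4% of all loci). Receptor genes moved in opposite directions: Fzd7 was at 3.86, 4.26 and 3.66 FPKM in ESC and at 58.5, 64.2 and 62.5 FPKM in EpiLC (log2 3.67 ± 0.06), and Fzd10 was at 12.0, 13.2 and 14.1 FPKM in ESC and at 1.75, 1.41 and 1.48 FPKM in EpiLC (log2 -2.47 ± 0.09). Notum, a Wnt deacylase that is itself a Wnt target, was at 79.5, 84.6 and 84.1 FPKM in ESC and at 4.83, 4.85 and 4.60 FPKM in EpiLC (log2 -3.86 ± 0.05, adjusted log2 -3.39), and Wnt7b fell from 5.84 ± 0.466 to 0.214 ± 0.0747 FPKM.

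Of 38 genes of the TGF-beta superfamily, 14 rose and 17 fell (36.8% and 44.7%, near the shares of all loci). Lefty2, a Nodal inhibitor and target, was at 87.8, 96.4 and 94.0 FPKM in ESC and at 9.23, 7.84 and 7.69 FPKM in EpiLC (log2 -3.34 ± 0.07). Id2 and Id3, targets of BMP signalling, fell from 14.3 ± 0.802 to 3.97 ± 0.710 FPKM and from 21.3 ± 2.33 to 6.96 ± 0.498 FPKM, and the activin receptor gene Acvr2b rose from 5.37 ± 0.312 to 13.6 ± 0.709 FPKM. In the Notch pathway 8 of 22 genes rose and 10 fell (36.4% and 45.5%, against 36.2% and 38.4% of all loci). Its target Hes1 was at 38.1, 39.2 and 37.7 FPKM in ESC and at 10.4, 9.37 and 9.72 FPKM in EpiLC (log2 -1.86 ± 0.05), the ligand gene Jag1 and the receptor gene Notch1 fell from 15.5 ± 0.647 to 5.57 ± 0.307 FPKM and from 12.8 ± 0.887 to 5.52 ± 0.227 FPKM, and the transcription factor Rbpj rose from 7.95 ± 0.395 to 23.9 ± 1.16 FPKM. Among 12 Hedgehog genes 4 rose and 3 fell. Smo, the signal transducer, rose from 1.63 ± 0.247 to 7.11 ± 0.474 FPKM and the receptor gene Ptch1 from 16.5 ± 0.342 to 22.8 ± 0.963 FPKM. Gli1, a transcription factor and target of the pathway, did not pass, with 3.67 ± 0.268 to 3.69 ± 0.565 FPKM (limma adjusted p = 0.996), and Hhip, a Hedgehog binding inhibitor, fell from 4.72 ± 0.549 to 0.606 ± 0.122 FPKM (adjusted log2 -2.25). The YAP targets Ctgf and Cyr61 were at 52.0, 57.1 and 56.3 FPKM in ESC and at 15.6, 14.1 and 14.9 FPKM in EpiLC for Ctgf and at 32.6, 33.0 and 37.2 FPKM in ESC and at 12.0, 10.3 and 13.05 FPKM in EpiLC for Cyr61. Both fell (log2 -1.82 ± 0.05 and -1.47 ± 0.08), while the list of Hippo genes and YAP targets as a whole had 7 higher and 9 lower of 22. The TEAD element, searched as GGAATG on both strands of the promoter windows, was present in 12 of 18 genes of this list (66.7%) and in 16.6% of all genes. The list was written to hold YAP targets, for which this element was chosen, so the share is no result of these data.

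Guidance and contact signals also moved in both directions. Of 16 Eph receptor and ephrin genes, 10 fell and 6 rose. Efnb2, an ephrin on chromosome 8, was at 1.30, 1.17 and 1.28 FPKM in ESC and at 18.8, 21.0 and 19.5 FPKM in EpiLC (adjusted log2 2.79), and the receptor gene Epha1 was at 0.225, 0.228 and 0.285 FPKM in ESC and at 9.07, 8.40 and 9.21 FPKM in EpiLC (log2 2.99 ± 0.08), while Epha4 and Ephb4 fell from 6.26 ± 0.536 to 2.37 ± 0.0869 FPKM and from 23.3 ± 0.635 to 11.6 ± 0.938 FPKM. Of 24 semaphorin, plexin, netrin and slit genes, 10 rose and 10 fell (41.7% each, against 36.2% and 38.4% of all loci). Sema6a was at 0.148, 0.135 and 0.175 FPKM in ESC and at 13.3, 13.2 and 13.6 FPKM in EpiLC (log2 3.64 ± 0.08), and Slit2 was at 8.06, 8.37 and 8.87 FPKM in ESC and at 0.826, 0.876 and 0.844 FPKM in EpiLC (log2 -2.35 ± 0.08). Sema4b fell from 36.2 ± 2.67 to 10.7 ± 0.712 FPKM, and the netrin receptor gene Unc5b rose from 3.09 ± 0.197 to 10.1 ± 0.134 FPKM.

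Of 11 retinoid genes, 4 rose and 4 fell (5 and 2 after adjustment). Rarg, a retinoic acid receptor, was at 30.1, 32.1 and 30.6 FPKM in ESC and at 93.3, 93.1 and 90.2 FPKM in EpiLC (log2 1.55 ± 0.04), and Rxrg, a partner receptor listed at 0 in each wild-type ESC library, reached 4.09 FPKM in EpiLC. Rara, on chromosome 11, fell (log2 -0.44 ± 0.08), and its change turned to 0.03 and no longer passed after adjustment. Crabp2 and Crabp1, which carry retinoic acid in the cell, fell from 45.6 ± 2.77 to 26.6 ± 2.48 FPKM and from 34.6 ± 0.914 to 25.5 ± 0.691 FPKM. Interferon and antigen presentation genes had 10 lower and 7 higher of 20. Ifitm1, an interferon-induced membrane protein, was at 461, 439 and 440.2 FPKM in ESC and at 81.3, 85.4 and 79.3 FPKM in EpiLC (log2 -2.43 ± 0.04), Ifitm3 fell from 324 ± 24.999 to 110.3 ± 8.84 FPKM and Ifitm2 from 413 ± 10.9 to 217 ± 10.5 FPKM, though these genes are close copies. Among 17 ion channel genes 9 rose and 3 fell. Cacng7, a calcium channel and AMPA receptor subunit, was at 2.37, 3.57 and 1.91 FPKM in ESC and at 26.3, 23.5 and 19.8 FPKM in EpiLC (log2 2.76 ± 0.18), and the potassium channel gene Kcnk5 rose from 15.5 ± 0.835 to 26.5 ± 1.14 FPKM.

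Several defining markers of other cell types were under 1 FPKM in both groups. Of 16 trophoblast markers in the files, 9 were under 1 FPKM in both groups, Cdx2 and Elf5 among them. Tfap2c, which naive cells also express, was at 79.6, 83.0 and 77.7 FPKM in ESC and at 5.72, 5.23 and 6.68 FPKM in EpiLC (log2 -3.56 ± 0.07). It makes up most of the trophoblast sum of 97.5 to 105 FPKM in wild-type ESC. In EpiLC that sum was 14.0 to 14.8 FPKM, of which Tfap2c was the smaller part. Primitive endoderm markers summed to 534 to 556 FPKM in wild-type ESC and 156 to 158 in EpiLC, mostly Sparc, while Gata6, Sox17, Sox7 and Pdgfra were under 1 FPKM in both. Of the tested ones 6 rose and 3 fell, among them the endocytic receptor gene Lrp2, which was at 0.447, 0.433 and 0.415 FPKM in ESC and at 8.65, 9.60 and 9.71 FPKM in EpiLC (log2 2.85 ± 0.08). Mesendoderm markers summed to 18.3 to 19.3 and 7.50 to 7.86 FPKM, and T, Mixl1, Mesp1 and Evx1 were under 1 FPKM in both groups. Gsc, a homeobox gene of the organizer, was at 12.6, 13.6 and 11.6 FPKM in ESC and at 0.284, 0.0763 and 0.229 FPKM in EpiLC (log2 -3.51 ± 0.10). Neuroectoderm markers summed to 88.1 to 97.8 and 117 to 120.4 FPKM, with 6 of 10 tested markers higher and 4 lower. Sox1, on chromosome 8, rose from 0.283 ± 0.05005 to 4.45 ± 0.472 FPKM (adjusted log2 1.67), while Pax2, Pax3 and Six3 were under 1 FPKM in both groups. Of 11 markers of cells resembling the 2-cell embryo, 10 were under 1 FPKM in both groups.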

How the data were processed

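Sample titles placed 3 libraries in wild-type ESC and 3 in EpiLC. Trizol extracts were enriched by oligo-dT for a TruSeq preparation, per the labels' protocols, and strand use in counting is not given in the sources used here. The deposited FPKM values per locus come from TopHat, Cufflinks and Cuffdiff on mm9, per the submitters' processing notes, and how the authors set library sizes is not given in the sources used here. Each file held 27914 loci, of which the 4778 unnamed ones (95.4% to 96.9% of the FPKM sum) were left out. Named loci that reached 1 FPKM in 3 or more libraries were tested on log2(FPKM + 1) in R 4.3.3 by limma 3.58.1, using its robust empirical Bayes step with a mean trend, 4 residual degrees of freedom and Benjamini-Hochberg adjustment. Of these, 191 carry merged names and 136 share a symbol, and both stayed out of lists and named genes. The fit was tested on simulated data. As an alternative, each chromosome's median change (1 to 19 and X) was subtracted from its EpiLC values and the fit repeated.

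Members, gene lists (63, from general knowledge) and tests were chosen with earlier results of these data known. Of 1899 list entries, 1845 matched a locus. Named genes were the identity markers, the 15 largest rises and 15 largest falls with chromosome medians removed (called, no overlap, at least 10 FPKM in the higher group), up to 4 members of each list by the size of t among those called with at least 5 FPKM (any member in lists of up to 12), and up to 4 genes in each direction on chromosomes 8 and 11. Genes with a promoter match and the MiT factors were named outside this rule, and some genes it names are not reported here. Files hold no counts, so depth is relative, and no interval or floor from counts can be given. Of the low loci used, 36.0% to 44.4% gave the most frequent step. Same-numbered libraries had correlations of deviations of -0.105, 0.212 and 0.158, and libraries of unlike number had -0.288 to 0.0988. With 3 libraries a group these values cannot show whether the numbers pair the libraries. Promoter windows were matched by symbol to RefSeq (GRCm38.p6). The alternatives were 16: pseudocount, filters, normalizations, chromosomes, libraries in the fit, replicate block, names, and each library left out.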

Additional observations from a re-analysis of the deposited data

How the results depend on the processing

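Counts of genes higher and lower stayed within 1.5 times under the 16 alternatives. With the replicate block, 4222 rose and 4501 fell (798 and 1042 by at least 1 log2 unit), although whether the numbers pair the libraries is not known. A pseudocount of 0.1 gave 1174 and 1370 genes past 1 log2 unit in place of 800 and 1046. The medians of chromosomes 8 and 11 kept their signs but were 0.452 and -0.547 with that pseudocount, 0.245 and -0.260 with no filter, and 0.470 and -0.425 with quantile normalization. Chromosome 11 was at -0.550 with FPKM of at least 5, and chromosome 8 at 0.431 with median-of-ratios scaling. Leaving out each library gave 0.401 to 0.419 for chromosome 8. Several list medians, taken against the median of all genes, changed sign. With FPKM of at least 5 they were 0.045 for keratins, -0.037 for Wnt, 0.067 for TGF-beta and -0.335 for IGF and insulin. Quantile normalization gave 0.009 for ribosomal proteins, and removal of chromosome medians 0.069 for fatty acid synthesis and 0.031 for the gene Rara. With chromosomes 8 and 11 left out they were 0.199 for one-carbon genes, 0.003 for keratins and -0.015 for IGF and insulin. Leaving out each library gave -0.026 to 0.067 for Wnt and -0.110 to 0.002 for TGF-beta. The cause was not tested. The files hold no read totals, so what depth limits at low FPKM cannot be stated.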

Other observations

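Some loci outside the gene lists were listed at 0 in every library of one group, and the small RNA loci among them are short, which makes their FPKM rest on few fragments. Snord91a, a small nucleolar RNA locus on chromosome 11, was at 904, 458 and 1336 FPKM in wild-type ESC and at 0 in EpiLC. Mir1898, a microRNA locus on chromosome 15, was at 94.9, 289 and 187 FPKM in wild-type ESC and at 0 in EpiLC. Snord68 on chromosome 8 was at 0 in wild-type ESC and at 1947, 3141 and 2359 FPKM in EpiLC. Mir92-2 on the X chromosome was at 0 in wild-type ESC and at 60.01, 145 and 72.7 FPKM in EpiLC. Within a group these small RNA values spanned a wide range. The predicted gene Gm694 on chromosome 4 was at 8.02, 6.99 and 9.84 FPKM in wild-type ESC and at 0 in EpiLC. These loci were chosen after their values were seen, and no test is given for them.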
